A study of Mus musculus with 35 samples.

Results

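Neuronal immediate early genes were followed across the 7 groups of a mouse study of closed head injury (CHI). The members were the 10 rows of the gene table named Egr1, Egr2, Egr4, Arc, Fos, Fosb, Junb, Nr4a1, Npas4 and Dusp1, out of 21203 genes in all. They were chosen on measured values of these same mice, because several of them were among the most lowered genes in the PBS group at 1 week post-injury (wpi) against Sham. That contrast is therefore given below as a description, and its counts support nothing.

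All mice were young adult males of the strain C57BL/6NCrl. Sham mice (n = 5) went through the procedure without the impact, and their labels list no treatment. The brains of 2 Sham mice were taken at 1 week and of 3 at 3 weeks. All other mice received the CHI, a blow to the closed skull, and in the first week an injection into the left hippocampus. The PBS groups were injected with phosphate-buffered saline. The MSC groups received mesenchymal stromal cells that were naïve, that is, unmodified. The IL-4 MSC groups received such cells after transfection with synthetic mRNA for the cytokine interleukin-4. Transfection and interleukin-4 therefore cannot be told apart in any comparison of IL-4 MSC with MSC. Each injected group had 5 mice at 1 wpi, shortly after the injection, and 5 at 3 wpi, except PBS at 3 wpi with 4. A further mouse labelled PBS at 3 wpi was not analysed here. Since Sham mice had neither impact nor injection, the effects of these cannot be told apart in any comparison with Sham. The MSCs were primary cells of mice, bought as 1 lot. Mice of an injected group also shared the first number of their label, so that whatever this number stands for cannot be told apart from the group.

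RNA was sequenced in bulk from a block of the left hemisphere, 2 mm wide, around the injection site, which the labels call left cortex. The 34 libraries held between 29838423 and 41554322 estimated counts. Levels are given below as CPM, the counts of a gene relative to the total of its library, with this total scaled by TMM, a factor that allows for differences in composition, and as TPM (transcript counts scaled for length and library total) where genes are compared with each other. Markers of cortical excitatory neurons were found in every library, with a summed level of 1190 to 1628 CPM over 6 genes. Markers of other regions varied between libraries. The 8 striatum markers summed to between 208 and 849 CPM in Sham, and to between 366 and 2480 CPM, with a median of 1509 CPM, in IL-4 MSC at 3 wpi. Thalamus markers ranged from 82.8 to 518 CPM in this same group.

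Immediate early genes are switched on within minutes of a stimulus from factors that are already in the cell, without new protein synthesis. In cortical neurons, synaptic activity and calcium entry are the usual stimulus, and the kinases that follow act through serum response factor (SRF) at CArG boxes and through CREB at cyclic AMP response elements (CRE). Their transcripts are short-lived, so their level follows the activity of the preceding minutes to hours. Most of the members encode transcription factors. Egr1, Egr2 and Egr4 encode zinc finger proteins, Fos, Fosb and Junb encode subunits of AP-1, Nr4a1 encodes an orphan nuclear receptor and Npas4 a bHLH-PAS factor that is largely restricted to neurons. Arc encodes a protein of the postsynaptic compartment that acts on AMPA receptor trafficking. Dusp1 encodes a phosphatase that turns off MAP kinases, and like Junb it is induced in many cell types other than neurons.

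Promoters of 8 members were taken from the RefSeq set (GRCm38.p6), which were Fos, Fosb, Egr2, Egr4, Junb, Nr4a1, Npas4 and Dusp1. Egr1 and Arc were not searched. The 250 bases before the annotated start were searched on both strands. The letters TGACG, the core of a CRE, were found in at least 1 promoter of all 8 genes. The like share was 19.8% of all 27025 genes, and 17.8% of all 32851 promoters of the same length held these letters. They are given for 5 members, since Fos is the prototype of the class, Fosb, Egr2 and Egr4 carry the changes with time described below, and Dusp1 had the smallest log2 fold change of the members in each of the 3 groups at 1 wpi against Sham. Bases are shown 5′ to 3′ on the strand of the gene, with TGACG on either strand, and the CArG box, in capitals. Egr2 had 5 starts in the set, and its window was picked among those that hold TGACG. The windows were chr12:85473640-85473889 on the plus strand for Fos, chr7:19310046-19310295 on the minus strand for Fosb, chr10:67537619-67537868 on the plus strand for Egr2, chr6:85513590-85513839 on the minus strand for Egr4 and chr17:26508473-26508722 on the minus strand for Dusp1.
Fos: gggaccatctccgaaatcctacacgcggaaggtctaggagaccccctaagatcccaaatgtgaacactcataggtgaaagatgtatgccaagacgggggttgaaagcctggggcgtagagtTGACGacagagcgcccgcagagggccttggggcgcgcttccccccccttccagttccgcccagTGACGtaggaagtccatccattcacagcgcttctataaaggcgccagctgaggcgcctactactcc
Fosb: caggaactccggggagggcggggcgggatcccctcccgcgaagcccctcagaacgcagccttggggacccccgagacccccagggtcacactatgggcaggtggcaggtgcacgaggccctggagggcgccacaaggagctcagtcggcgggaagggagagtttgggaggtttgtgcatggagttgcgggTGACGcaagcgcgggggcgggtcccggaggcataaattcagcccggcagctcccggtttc
Egr2: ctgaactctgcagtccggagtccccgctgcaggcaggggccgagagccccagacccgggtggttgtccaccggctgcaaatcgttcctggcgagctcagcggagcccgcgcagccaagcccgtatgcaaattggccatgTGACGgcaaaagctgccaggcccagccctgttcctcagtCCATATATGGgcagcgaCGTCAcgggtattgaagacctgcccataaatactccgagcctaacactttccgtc
Egr4: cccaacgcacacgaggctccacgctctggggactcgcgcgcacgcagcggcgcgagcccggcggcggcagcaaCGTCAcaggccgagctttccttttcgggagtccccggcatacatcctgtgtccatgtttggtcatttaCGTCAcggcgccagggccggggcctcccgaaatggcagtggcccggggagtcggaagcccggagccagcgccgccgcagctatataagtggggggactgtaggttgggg
Dusp1: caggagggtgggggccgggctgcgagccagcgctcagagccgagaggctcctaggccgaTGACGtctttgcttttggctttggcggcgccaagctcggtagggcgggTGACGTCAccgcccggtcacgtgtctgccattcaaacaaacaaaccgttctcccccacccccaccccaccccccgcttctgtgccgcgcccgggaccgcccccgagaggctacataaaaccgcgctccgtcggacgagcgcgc

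The complete palindromic CRE, TGACGTCA, was present in Dusp1 alone of the 8 genes, where it overlaps the core motif, and in 1.55% of all promoters. The CArG box was matched in Egr2 alone, for which it lies in the window shown, and in 1.47% of all promoters. A binding site of the Egr proteins, GCGNGGGCG, was matched in Fosb and Nr4a1 and in 4.70% of all promoters. The AP-1 site TGANTCA was matched in 0 of the 8 genes and in 6.75% of all promoters. These matches describe the letters of the windows only, and say nothing of Egr1 and Arc, which were not searched. The positions that follow leave out Egr1. By the annotation of GRCm38, the genes themselves lie at chr6:85511121-85513589 (Egr4), chr7:19302696-19310051 (Fosb), chr8:84974484-84978718 (Junb), chr10:67535475-67542188 (Egr2), chr12:85473890-85477273 (Fos), chr15:74669083-74672570 (Arc), chr15:101254269-101274795 (Nr4a1), chr17:26505590-26562128 (Dusp1) and chr19:4984355-4990316 (Npas4).

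In Sham, Egr1 had the highest level of the members per transcript length, with 204 ± 47.0 TPM (SD, n = 5), followed by Arc with 145 ± 60.4 TPM, Nr4a1 with 98.6 ± 20.7 TPM and Junb with 78.9 ± 13.2 TPM. The levels of Dusp1 (38.6 ± 7.61 TPM), Egr4 (33.2 ± 5.23 TPM) and Fos (32.3 ± 8.69 TPM) lay within 1 SD of each other. Npas4 (13.5 ± 3.97 TPM), Egr2 (13.5 ± 5.90 TPM) and Fosb (11.1 ± 2.44 TPM) formed the lower end and were not separated by their spread either. The ranges of Egr1 and Arc over Sham mice also overlapped, at 167 to 280 TPM and 84.1 to 232 TPM. The lowest estimated count of any member in any library was 105.

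Each of the 10 members had its highest group mean in Sham. In 7 of 10, the second highest mean was that of MSC at 3 wpi. The lowest mean belonged to a 1 wpi group in 7 members and to IL-4 MSC at 3 wpi in the other 3, which were Fos, Junb and Dusp1. Sham mouse 5, a 3-week mouse, had the highest level of all 34 libraries for all 10 members. Sham means were higher at 3 weeks than at 1 week for 10 of 10 members, with 3 and 2 mice, and the ranges were apart for Egr1 and Arc. The difference between the weeks was not tested in Sham mice.

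**Figure D1:**
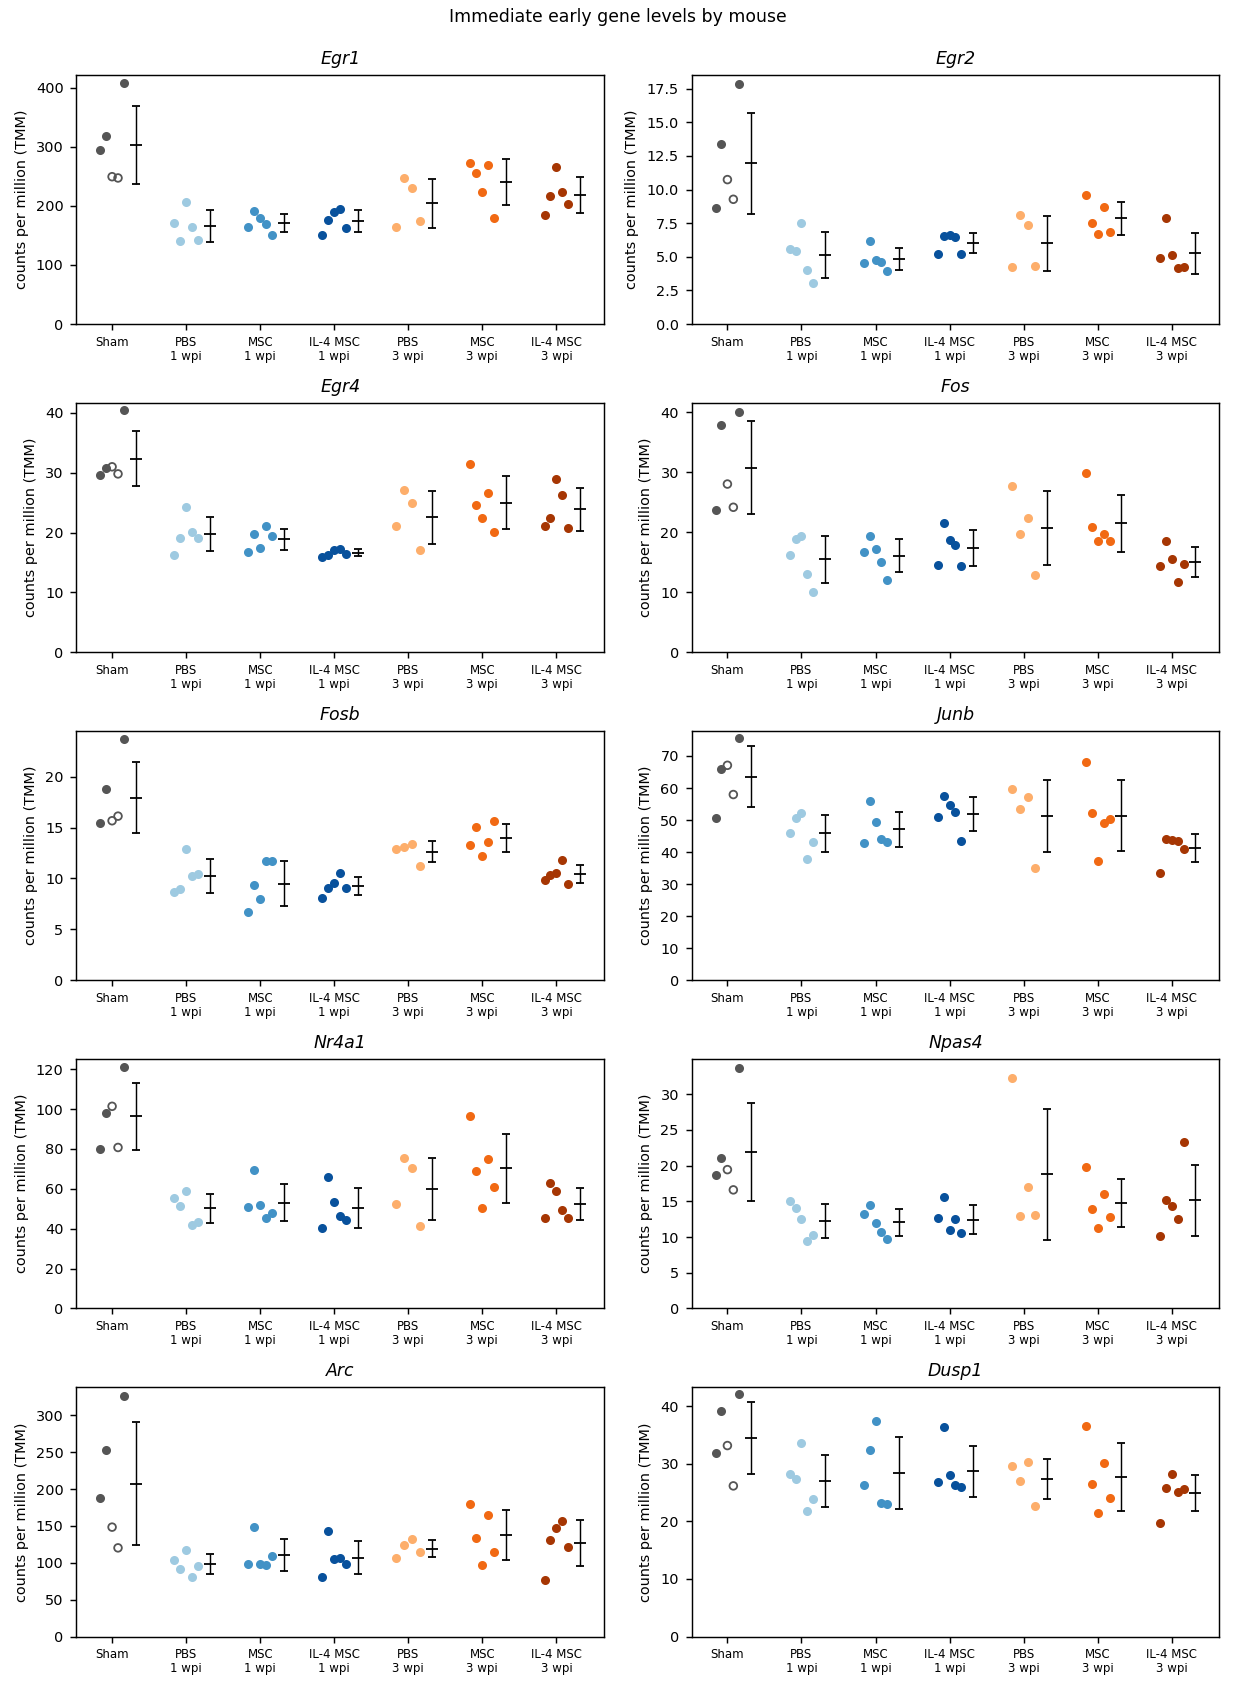
Level of each member in each mouse, in TMM-scaled CPM on linear axes that start at 0, by group. Points are mice, open circles are the Sham mice taken at 1 week, and the bars beside them are the mean ± SD (n = 4 for PBS at 3 wpi and 5 in the other groups); the highest point of every panel is Sham mouse 5, and in 8 of 10 panels every mouse of PBS at 1 wpi lies below every Sham mouse, as in 3.64% of all genes tested, in the contrast that chose the members.

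The contrast that chose the members compared PBS at 1 wpi with Sham, and so spans injury and injection together. Egr1 was measured at 294, 318, 249, 247 and 409 CPM in Sham mice 1 to 5 and at 171, 141, 207, 165 and 142 CPM in PBS mice 1 to 5. Arc was at 188, 254, 148, 120 and 326 CPM in Sham and at 104, 92.2, 117, 81.1 and 96.2 CPM in PBS. The groups did not overlap for either gene, but the lowest Sham value of Arc, from a 1-week mouse, lay only just above the highest PBS value.

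Fos was at 23.7, 37.9, 28.0, 24.2 and 40.1 CPM in Sham and at 16.3, 18.8, 19.3, 13 and 10.1 CPM in PBS. Egr2, the member with the lowest fold change, was at 8.62, 13.4, 10.7, 9.28 and 17.8 CPM in Sham and at 5.61, 5.46, 7.49, 4.05 and 3.08 CPM in PBS. Neither gene overlapped between the groups. Dusp1, by contrast, was at 26.2 to 42.2 CPM in Sham and at 21.8 to 33.6 CPM in PBS, with ranges that overlapped. Junb also overlapped, at 50.7 to 75.8 CPM and 37.7 to 52.1 CPM.

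Group means in PBS at 1 wpi were between 42.9% (Egr2) and 78.2% (Dusp1) of the Sham mean, with a median of 55.3% over the 10 members. The log2 fold changes ran from -1.22 (Egr2) to -0.35 (Dusp1). At an adjusted p under 0.05, 9 members were called lower, all but Dusp1, against a background of 13.8% of the 17131 genes tested called in either direction. Since this contrast chose the members, nothing is read from that count. Among the 862 genes called lower and ordered by fold change, Egr2, Arc, Fos, Nr4a1 and Egr1 held places 6 to 10, and Npas4, Fosb, Egr4 and Junb places 13, 15, 22 and 59. The 5 genes ahead of Egr2 were S100a5, Cyp2g1, Omp, Olfr464 and Gfy, which are known from olfactory tissue.

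Without Sham mouse 5, the group means in PBS at 1 wpi were between 48.9% and 82.8% of the Sham mean, with a median of 60.8%. Against the 2 Sham mice of week 1 alone, they were between 51.3% and 90.9%, with a median of 65.8%.

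Whether cells of the block differed was read from marker lists. The 8 neuronal markers (Rbfox3, Snap25, Syt1 and others) summed to between 7143 and 7817 CPM in Sham and to between 6274 and 6887 CPM in PBS at 1 wpi, a mean of 88.3% of Sham. The members summed to 54.8% of Sham in the same mice. The ratio of members to neuronal markers was between 0.0825 and 0.155 in Sham and between 0.0584 and 0.0832 in PBS at 1 wpi, so that PBS mouse 3, the highest of its group, lay just above Sham mouse 4, the lowest. The 4 astrocyte markers summed to 807 to 917 CPM in Sham and to 1643 to 2124 CPM in PBS at 1 wpi, and the 5 microglia and macrophage markers to 157 to 208 CPM and 249 to 303 CPM. The 8 striatum markers had a median log2 fold change of -0.73 with 0 called, at 208 to 849 CPM in Sham and 273 to 400 CPM in PBS at 1 wpi. The 6 cortical excitatory markers had a median of -0.12 with 2 called lower, where 13.8% of all genes were called. Hippocampus and thalamus markers had medians of 0.04 and 0.08 with 0 called. No marker on these lists was at 0 in any library. In bulk tissue, fewer neurons and less RNA per neuron cannot be told apart, and the part of these lists in the level of the members was not tested.

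The injured groups that received cells were compared with the same Sham mice, so their values stand beside those of PBS and are not independent of the choice of members. MSC at 1 wpi had group means between 40.3% and 82.5% of Sham, with a median of 55.0%, and 9 members were called lower, again all but Dusp1 (17.8% of all genes called). IL-4 MSC at 1 wpi had means between 50.2% and 83.3%, with a median of 54.3%, and 8 members were called lower, all but Junb and Dusp1 (37% of all genes called). Against the Sham mice of week 1 alone, 6 members were called for MSC and 5 for IL-4 MSC. The shares of 17.8% and 37% are not those of this fit, and nothing is read from its counts. For Egr1, the ranges were 151 to 192 CPM in MSC and 151 to 194 CPM in IL-4 MSC, next to 141 to 207 CPM in PBS.

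At 3 wpi, all 10 members were below Sham in their means in each injured group. The Sham mice had helped to choose the members, so these comparisons are not independent of that choice, in PBS as in the cell groups. The number past the threshold differed between groups, which is no test of one injured group against another. In PBS, the means were between 50.2% and 85.8% of Sham, with a median of 68.5%, and 0 members passed in edgeR, while 9 had an unadjusted p under 0.05. DESeq2 called 1. Of all genes, 0.0292% were called and 5.34% had an unadjusted p under 0.05. In MSC, the means were between 65.6% and 80.9%, with a median of 75.2%, and 0 members passed in edgeR, while 10 had an unadjusted p under 0.05. DESeq2 called 0. Of all genes, 1.15% were called and 11% had an unadjusted p under 0.05. In IL-4 MSC, the means were between 44.0% and 73.9%, with a median of 63.0%, and 8 members were called lower, all but Npas4 and Dusp1, at a background of 4.27%. This count fell to 5 without Sham mouse 5, without IL-4 MSC mouse 1 or without IL-4 MSC mouse 5. It was 6 with the striatum markers in the fit, where Egr4 and Junb no longer passed. Against the 3 Sham mice of week 3 alone, 3 members were called for PBS, 1 for MSC and 7 for IL-4 MSC. The shares of all genes in this paragraph come from the edgeR fit of all mice, not from the alternatives.

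**Figure D2:**
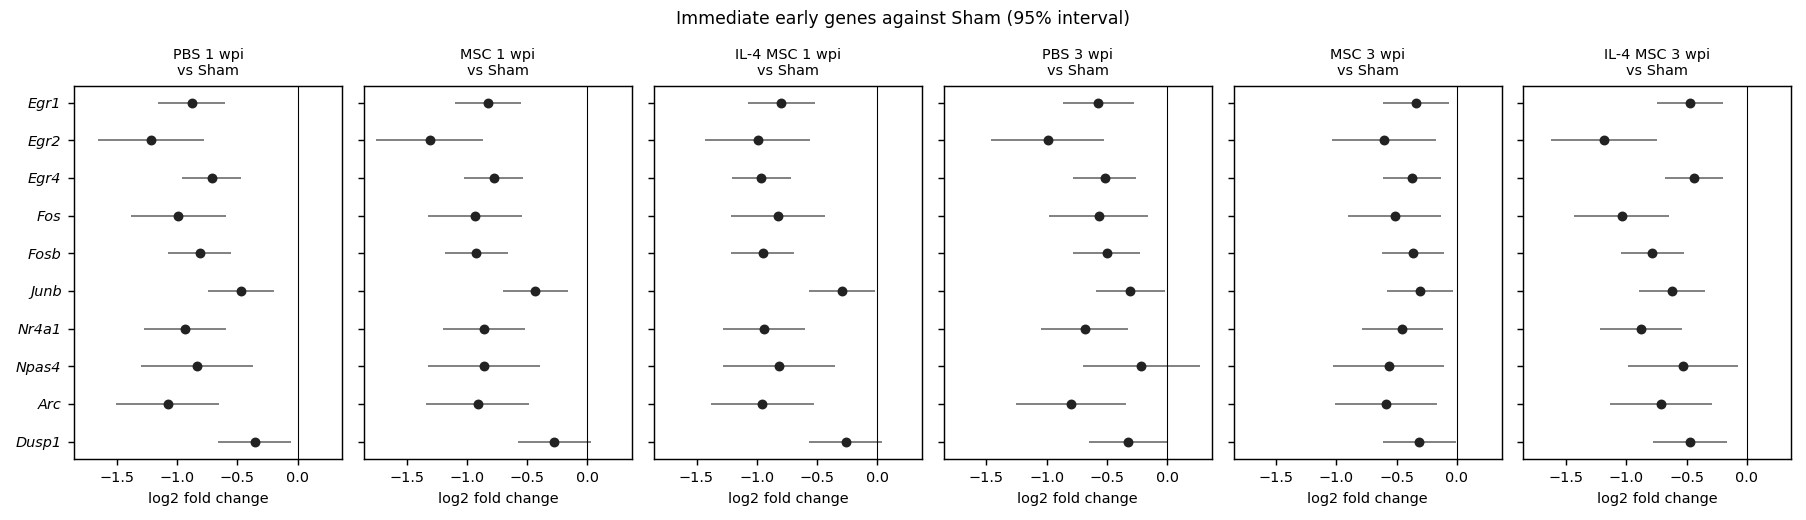
Log2 fold change of each member against Sham in the 6 injured groups, with its 95% interval; all panels share the same 5 Sham mice, and the first one chose the genes. The point estimates lie left of 0 for all 10 members in each group. Their median is nearest to 0 in the MSC group at 3 wpi, at -0.41, while single members lie nearer to 0 in other groups.

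The comparisons that follow share no mouse with the contrast that chose the members, except where stated, and are tested. Earlier results of these data were known when the members were chosen, so the tests are not fully independent of that choice. The first of these comparisons set cells transfected for interleukin-4 against naïve cells at 1 wpi, and so spans transfection and interleukin-4 together. In IL-4 MSC against MSC at 1 wpi, 0 of 10 members passed in edgeR, DESeq2 also called 0, and 0 had an unadjusted p under 0.05. Of all genes, 8.69% were called and 19.9% had an unadjusted p under 0.05. The log2 differences ran from -0.18 for Egr4, with a 95% interval from -0.43 to 0.07, to 0.32 for Egr2, with an interval from -0.13 to 0.77. Arc had a difference of -0.04 with an interval from -0.47 to 0.38, and Fos one of 0.11 with an interval from -0.28 to 0.51. The intervals thus leave room for changes of either sign in both genes. Relative to PBS, whose mice had helped to choose the members, 0 members were called in MSC (0.123% of all genes) and 0 in IL-4 MSC (17.4%), with log2 differences between -0.11 and 0.17 in MSC and between -0.25 and 0.23 in IL-4 MSC.

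At 3 wpi, 0 members passed in MSC against PBS (background 0.0817%), where 0 had an unadjusted p under 0.05 (5.73% of all genes) and the log2 differences ran from -0.35 for Npas4 to 0.38 for Egr2. Npas4 was at 32.2, 12.9, 17.0 and 13 CPM in PBS mice 1 to 4, so its mean in this group was set largely by mouse 1. In IL-4 MSC against PBS (background 2.94%), 0 passed and 3 had an unadjusted p under 0.05 (16.9% of all genes), which were Fos (-0.47), Junb (-0.32) and Fosb (-0.28). DESeq2 called 0 in both of these comparisons.

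IL-4 MSC against MSC at 3 wpi gave the lower mean in 9 of 10 members, but 0 passed in edgeR at a background of 3.47%, and 5 had an unadjusted p under 0.05 (17.9% of all genes). Fosb was at 9.88, 10.3, 10.5, 11.8 and 9.47 CPM in IL-4 MSC and at 13.3, 15.0, 12.2, 13.6 and 15.6 CPM in MSC. Every IL-4 MSC mouse was below every MSC mouse. The log2 difference was -0.42 ± 0.13 (SE), with an adjusted p of 0.059 in edgeR and 0.030 in DESeq2, which called this 1 member. Egr2 differed by -0.58 (95% interval from -1.02 to -0.14, adjusted p = 0.14), Fos by -0.52 (from -0.92 to -0.13, adjusted p = 0.13), Nr4a1 by -0.43 (adjusted p = 0.16) and Junb by -0.32 (adjusted p = 0.19). Without IL-4 MSC mouse 2, whose Egr2 level of 7.87 CPM was the highest of its group, Egr2 and Fosb passed, with Egr2 at -0.77 (adjusted p = 0.021). Egr1, Egr4 and Arc had differences of -0.13, -0.06 and -0.12, and the 95% interval of Egr4 ran from -0.31 to 0.18. Striatum markers were highest in IL-4 MSC at 3 wpi, as given above, and with them in the fit the number of members called was 0 as well. Hippocampus markers had a median log2 difference of -0.84 over 6 genes against MSC, an unadjusted p under 0.05 for 6 and 0 called. The 4 thalamus markers had a median of -0.69, with 0 called. The part of both in the values of the members was not tested.

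The change with time was followed within each injected group, between separate mice at 1 and 3 wpi. In MSC, 4 of 10 members rose, which were Egr1, Egr2, Egr4 and Fosb, at a background of 6.15% of all genes. The other AP-1 members, Fos and Junb, did not pass, and Junb changed by 0.13 on the log2 scale (adjusted p = 0.70). Fosb was at 6.68, 9.35, 8.01, 11.7 and 11.7 CPM at 1 wpi and at 13.3, 15.0, 12.2, 13.6 and 15.6 CPM at 3 wpi. All mice at 3 wpi lay above all mice at 1 wpi, and the log2 change was 0.56 ± 0.13 (SE, adjusted p = 0.0054). Egr2 was at 4.57, 6.16, 4.78, 4.65 and 3.93 CPM at 1 wpi and at 9.57, 7.51, 6.70, 8.67 and 6.82 CPM at 3 wpi. It did not overlap either, and changed by 0.70 ± 0.22 (adjusted p = 0.0498, at the threshold).

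Egr1 in MSC was at 165, 192, 179, 169 and 151 CPM at 1 wpi and at 273, 255, 223, 270 and 179 CPM at 3 wpi. Only mouse 5 at 3 wpi fell inside the range of 1 wpi, and the log2 change was 0.49 ± 0.14 (adjusted p = 0.025). Egr4 was at 16.7 to 21.1 CPM at 1 wpi and at 20 to 31.5 CPM at 3 wpi, a change of 0.41 ± 0.12 (adjusted p = 0.038). Fos (0.42) and Nr4a1 (0.41) had like changes but wider errors, with adjusted p of 0.24 and 0.17, and Dusp1 had a log2 difference of -0.04 with a 95% interval from -0.34 to 0.27. The median over the 10 members was 0.41, next to 0.01 for all genes tested. Fosb remained past the threshold whichever mouse was left out, but not in a fit of the 2 groups alone (adjusted p = 0.062). Marker lists moved over the same weeks. Neuronal markers summed to 6323 to 6792 CPM at 1 wpi and to 7068 to 7334 CPM at 3 wpi, with 2 of 8 called higher. Astrocyte markers were at 1647 to 1899 CPM and 1065 to 1347 CPM (2 of 4 called lower), and microglia and macrophage markers at 272 to 318 CPM and 193 to 223 CPM (4 of 5 called lower). Their part in the rise of the members was not tested. The number of members past the threshold was 1 without MSC mouse 1 or 5 at 1 wpi or mouse 1, 2 or 4 at 3 wpi, and 2 without mouse 3 or 4 at 1 wpi.

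In IL-4 MSC, 1 member rose from 1 to 3 wpi, Egr4, at a background of 33% of all genes. It was at 15.9, 16.3, 17.0, 17.3 and 16.5 CPM at 1 wpi and at 21.0, 22.4, 29.0, 26.2 and 20.8 CPM at 3 wpi. The groups did not overlap, the log2 change was 0.52 ± 0.12 (SE, adjusted p = 0.0011), and the gene passed in each fit that left out 1 mouse. Striatum markers had a median log2 change of 1.37 in the same comparison, with 6 of 8 called higher. Egr1 (0.32, adjusted p = 0.066) and Junb (-0.33, adjusted p = 0.057) fell short of the threshold with opposite signs, and the median of the 10 members was 0.11. Without IL-4 MSC mouse 5 at 1 wpi or mouse 2 at 3 wpi, Junb passed, and without mouse 1 at 3 wpi, Egr1 did. In PBS, all 10 members had higher means at 3 wpi, with log2 differences of 0.03 to 0.62 and a median of 0.27, but 0 passed in edgeR or DESeq2, at a background of 5.51%, and 4 had an unadjusted p under 0.05 (16.4% of all genes). The PBS mice at 1 wpi had been used to choose low values, so a rise from them is not independent of that choice.

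Whether the difference between transfected and naïve cells changed between the weeks was tested as an interaction. This was IL-4 MSC against MSC at 1 wpi minus the same at 3 wpi. In edgeR 0 members passed at a background of 7.86%, and 4 had an unadjusted p under 0.05 (20.8% of all genes). Egr2 had the highest difference, at 0.90 ± 0.31 on the log2 scale, with a 95% interval from 0.27 to 1.53 and an adjusted p of 0.072. DESeq2 called this member alone, at an adjusted p of 0.041, and it also passed without IL-4 MSC mouse 2 at 3 wpi, at 0.013. Fos (0.64), Junb (0.46) and Fosb (0.40) followed with adjusted p of 0.17, 0.15 and 0.21. It is thus not shown that the rise of Fosb and Egr2 in MSC differed from their course in IL-4 MSC.

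**Figure D3:**
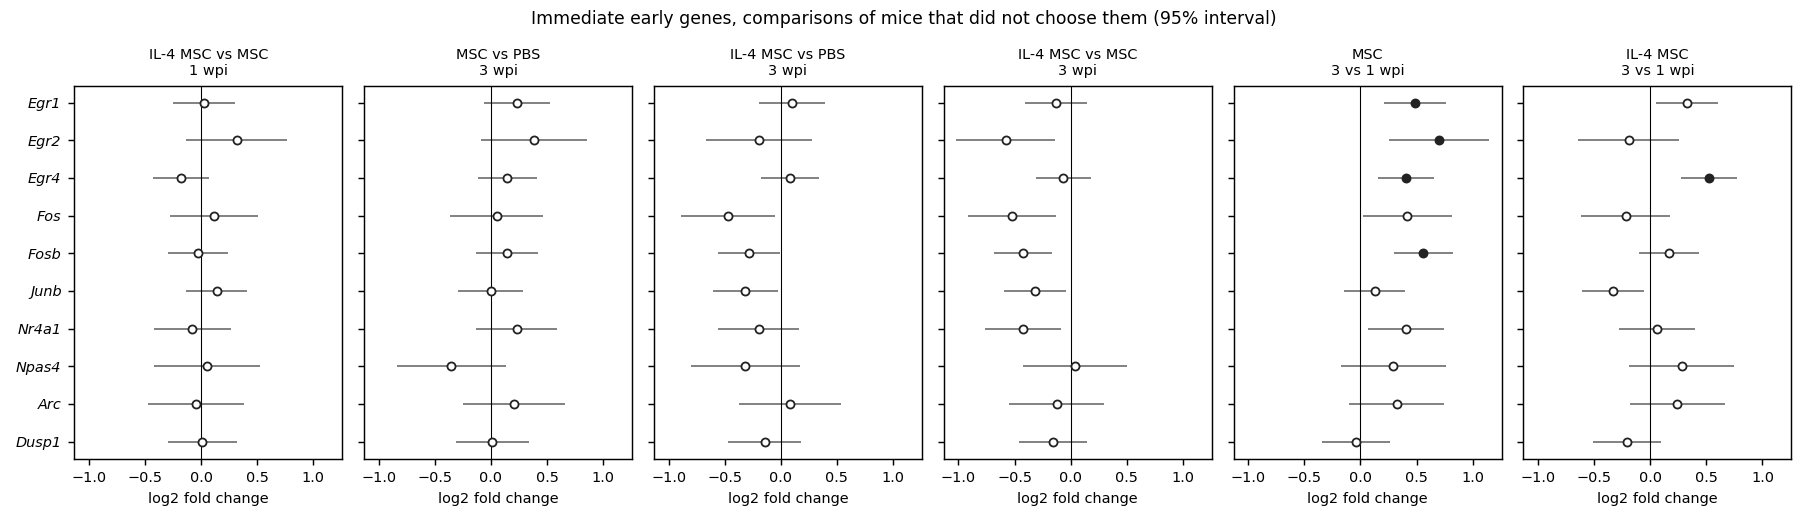
Log2 fold change of each member with its 95% interval in the 6 comparisons that share no mouse with the contrast used to choose the members. Filled points had an adjusted p under 0.05 in edgeR and open points did not; there are 4 filled points in MSC at 3 against 1 wpi, 1 in IL-4 MSC at 3 against 1 wpi and none in the treatment comparisons.

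Beyond the group means, the members varied together from mouse to mouse. After the mean of each group had been subtracted, all 45 pairs of members had a positive Pearson r of log2 CPM over the 34 libraries, from 0.01 to 0.82 with a median of 0.58. A different measure, the r of single genes other than the members with the mean of the members, had a median of -0.0093 and reached 0.79. It was taken over 14917 genes at 1 CPM or more. Nr4a1 followed the mean of the other 9 members most closely (r = 0.86), then Dusp1 (0.84), Junb (0.83), Fos (0.77) and Arc (0.76). Npas4 (0.53) and Fosb (0.32) did so least. These values describe libraries that share 1 scaling factor for all genes, and carry no test. The Sham mean that was subtracted pools mice of both weeks, and Sham mouse 5 lay 0.46 above it in the members' mean log2 CPM. The part of week and of this library in the r was not tested.

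In some groups single mice led for most members. MSC mouse 1 at 3 wpi was the highest of its group for 9 of 10 members, and mouse 3 the lowest for 7. Within PBS at 1 wpi, mouse 3 was the highest for 9 of 10 members, although it lay below all Sham mice for 8 of the members. MSC mouse 2 and IL-4 MSC mouse 2 at 1 wpi led their groups for 7 and 6 members. In PBS at 3 wpi no mouse led, since mice 1, 2 and 3 were the highest for 3, 4 and 3 members, and in IL-4 MSC at 3 wpi mouse 2, the most frequent, was the highest for 4. Npas4 departed from this in PBS mouse 1 at 3 wpi, where its 32.2 CPM stood beside an Egr1 of 164 CPM, the lowest of the group, and in IL-4 MSC mouse 5 at 3 wpi with 23.4 CPM.

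**Figure D4:**
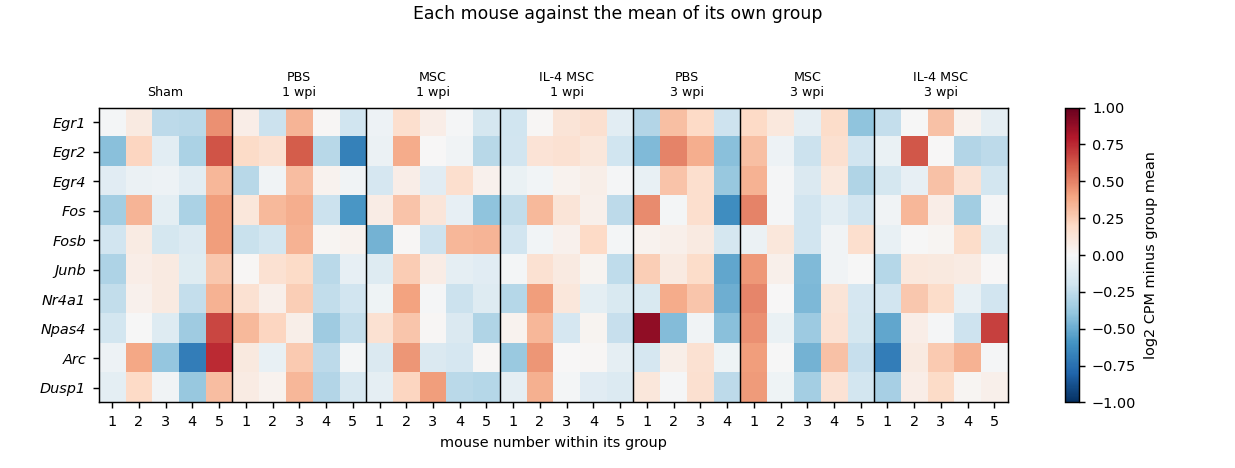
Each member (rows) in each mouse (columns), as log2 CPM minus the mean of the mouse's own group, from blue (lower) to red (higher). In Sham mouse 5 all 10 members lie above the group mean, and in MSC mouse 1 at 3 wpi all but Fosb do. In PBS mouse 1 at 3 wpi the members are mixed, with Npas4 and Fos above and Egr1 and Egr2 below.

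The genes most like the members were sought by the r with their mean. With group means subtracted, these were Trib1 (r = 0.79), Ier2 (0.74), Dusp6 (0.72), Plk3 (0.69) and Mex3d (0.67), followed by Kdm3b, Cdk5rap2, Traf5, Ctdp1 and Tie1 down to 0.60. Trib1, Ier2 and Dusp6 are also immediate early or early response genes. Without that subtraction, over the same 34 libraries, they were Dusp6 (0.87), Hdac5 (0.80), Adrb1 (0.80), Pcsk1 (0.73) and Nr4a2 (0.73), followed by Hivep1, Kcnk12, Zbtb21, Gpr3 and Zbtb4 down to 0.68. Dusp6, which encodes a phosphatase of ERK, was the 1 gene in both sets.

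Other genes of the response were taken from 3 lists. In PBS at 1 wpi against Sham, 13.8% of all genes tested were called, 862 lower and 1495 higher. In the list of 29 other fast primary response genes, 9 were called lower and 4 higher in this contrast. Egr3, the closest relative of the Egr members, had a log2 fold change of -0.67 and Fosl2 one of -0.61. In contrast, Atf3, a factor induced by injury and stress, had 2.16 and Zfp36, which destabilizes cytokine mRNAs, 0.85. The list thus held genes of both directions, with a median of -0.10, next to -0.85 for the members. Of 12 later activity-induced genes, 7 were called lower and 0 higher, among them Inhba (-0.66), Homer1 (-0.53) and Pcsk1 (-0.48), and the median was -0.30. Of 18 upstream factors, such as Srf, Creb1 and the NMDA receptor subunits, 0 were called lower and 1 higher, with a median of -0.04. These counts come from the contrast that chose the members and are a description.

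The same lists were then read in the comparisons that share no mouse with the contrast used to choose the members. The lists too were chosen with earlier results of these data known, and the difference between lists was not tested. In IL-4 MSC against MSC at 1 wpi, 6 of the 29 fast genes were higher and 0 lower. Of all genes tested, 8.69% were called, 1312 higher and 176 lower, so most calls of any kind were higher. The fast genes were led by Klf4 (0.60, adjusted p = 0.0014), Apold1 (0.64, adjusted p = 0.0061), Maff (0.74, adjusted p = 0.016) and Ccn1 (0.58, adjusted p = 0.024). Klf4 and Apold1 are known from endothelium, and the 5 endothelial markers summed to between 231 and 292 CPM in IL-4 MSC at 1 wpi, above the 163 to 208 CPM of MSC. The part of endothelial cells in these genes was not tested. Of the later genes and the upstream factors, 0 were called in this comparison by edgeR, while 1 and 3 had an unadjusted p under 0.05 (19.9% of all genes).

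From 1 to 3 wpi, 2 of the 29 fast genes fell in MSC and 0 rose, where 6.15% of all genes tested were called, 845 lower and 209 higher. The count of the fast genes is thus near the share of all genes. Atf3 fell by 1.80 on the log2 scale (adjusted p = 0.00013) and Ccn1 fell by 0.72 (adjusted p = 0.0088), in the comparison in which 4 of the 10 members rose. Pcsk1, which encodes a prohormone convertase, was the 1 later gene that rose (0.23, adjusted p = 0.020), and 0 upstream factors were called. In IL-4 MSC, 13 of the 29 fast genes fell and 4 rose, where 33% of all genes tested were called, 2842 lower and 2812 higher. Atf3 fell by 2.47, Maff by 1.51, Ccn1 by 1.33 and Klf4 by 0.95, all with adjusted p of 1.4e-06 or less. Of the later genes, 5 rose and 1 fell. Homer1, a scaffold of the postsynapse, rose by 0.45 (adjusted p = 0.0015), Sorcs3 by 0.27 (adjusted p = 0.00072) and Pcsk1 by 0.24 (adjusted p = 0.0028), and Ptgs2 fell by 0.69 (adjusted p = 0.0092). Of the 18 upstream factors, 7 rose and 2 fell, against the same 33% of all genes. They included Camk4 (0.42, adjusted p = 0.0012), a kinase that acts on CREB, and Grin1 (0.23, adjusted p = 0.00013), a subunit of the NMDA receptor. Neuronal markers in IL-4 MSC summed to 6118 to 6578 CPM at 1 wpi and to 6914 to 7417 CPM at 3 wpi. Striatum markers summed to 408 to 820 CPM and 366 to 2480 CPM (6 of 8 called higher), and 2 of 2 blood markers were called higher. Hippocampus and thalamus markers had median log2 changes of -0.31 and -0.62, with 0 called. Endothelial markers summed to 231 to 292 CPM and 155 to 179 CPM (5 of 5 called lower), and microglia and macrophage markers to 313 to 379 CPM and 191 to 224 CPM (3 of 5 called lower). The part of these lists in the changes was not tested. At 3 wpi, IL-4 MSC against MSC called 0 fast genes in edgeR, with 10 at an unadjusted p under 0.05. It called 1 later gene as higher, and 1 upstream factor as higher and 2 as lower. The shares of all genes were 3.47% called and 17.9% with an unadjusted p under 0.05.

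**Figure D5:**
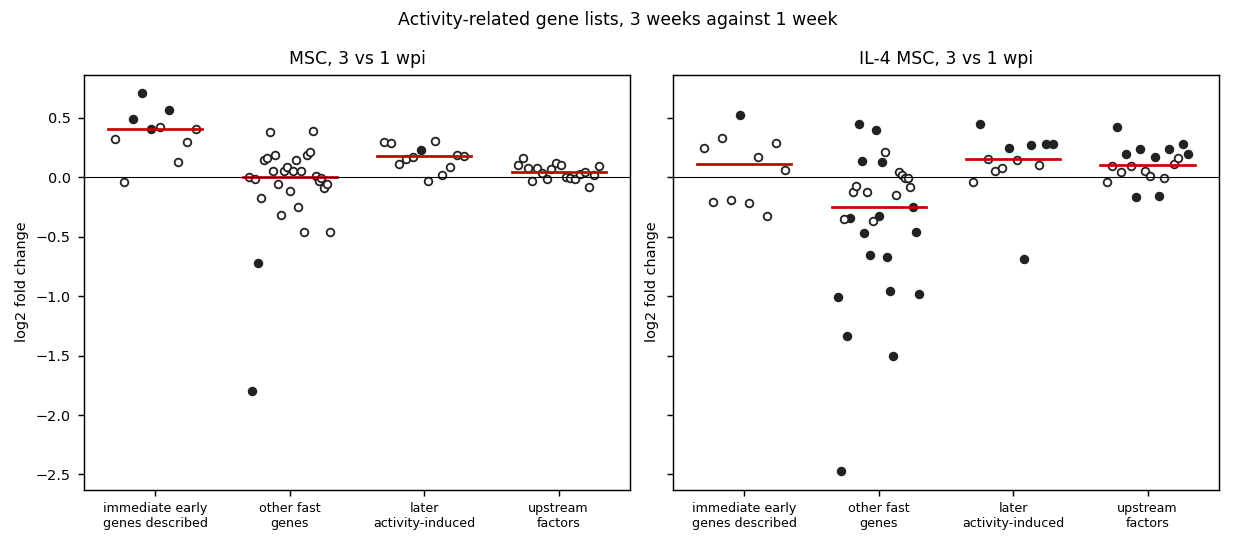
Log2 fold change at 3 against 1 wpi in the MSC group (left) and the IL-4 MSC group (right) for the 10 members and the 3 other lists; filled points had an adjusted p under 0.05 in edgeR and red lines are medians. In MSC the members' median was 0.41 and that of the other fast genes -0.0025, and the lowest point in either panel is Atf3.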

How the data were processed

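RNA of 34 libraries had been sequenced as short paired-end reads on a NovaSeq, trimmed with cutadapt 2.4, checked with FastQC 0.11.8 and pseudo-aligned with kallisto 0.46 to the protein-coding GENCODE vM23 transcripts (GRCm38), with sleuth 0.30 in R 3.6.1, per the labels and methods. The authors deposited 1 table of 21203 genes with estimated counts and TPM per library. Estimated counts depend on how kallisto splits reads between like transcripts, and were rounded to whole numbers. The deposited TPM, scaled by the authors for transcript length and library total, were used only to compare genes with each other. The 63 columns of the authors' own comparisons hold p-values, q-values and fold changes and were not used.

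Counts were tested with the quasi-likelihood test of edgeR 4.0.16 (R 4.3.3) in 1 fit of the 7 groups, with TMM scaling, filterByExpr (17131 genes kept, all 10 members among them) and Benjamini-Hochberg adjustment over all genes. A gene was called at an adjusted p under 0.05. DESeq2 1.42.0, no filter, fits of 2 groups, a replicate block, Sham mice of the same week only, leaving out each mouse and a striatum covariate were the alternatives. The last was chosen after seeing the data. CPM used library total times TMM factor, and correlations log2 CPM with a prior count of 2. For the other lists, up to 4 genes with the lowest p were named in IL-4 MSC against MSC at 1 wpi and in each cell group at 3 against 1 wpi, and others with large fold changes were named after their values were seen. Genes most like the members were the 10 with the highest r among genes of at least 1 CPM. Members and lists were chosen with earlier results of these data known. Group labels give separate mice as replicates. A chi-square of the counts per degree of freedom was at least 3.20 in all 66 pairs of mice of a group, above sampling noise, so no library was counted as a duplicate.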

Additional observations from a re-analysis of the deposited data

Results flagged for a closer look

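Of the 70 combinations of a member and a group, 8 held a mouse whose level stood apart from the other mice of its group, by the gap to its nearest neighbour relative to the range. Chance gives about 1 in 20 such groups. In Sham, mouse 5 stood apart for Egr4, with 40.5 CPM beside 31.0 CPM for the next mouse, and for Npas4, with 33.7 CPM beside 21.1 CPM. It was the highest Sham mouse for all 10 members, so these flags belong to 1 library. In MSC at 1 wpi, mouse 2 stood apart for Nr4a1 (69.3 CPM, next 52.0 CPM) and Arc (148 CPM, next 110 CPM). In IL-4 MSC at 1 wpi, mouse 2 stood apart for Dusp1, with 36.5 CPM beside 28.1 CPM. In MSC at 3 wpi, mouse 1 stood apart for Fos, with 29.8 CPM beside 20.9 CPM. In IL-4 MSC at 3 wpi, mouse 2 stood apart for Egr2, with 7.87 CPM beside 5.14 CPM, and mouse 1 was low for Junb, with 33.6 CPM beside 41.1 CPM.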

How the results depend on the processing

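Counts of members called in IL-4 MSC against MSC at 1 wpi, in either cell group against PBS at both weeks, and in PBS at 3 against 1 wpi were 0 under every alternative run. DESeq2 called 1 member in PBS against Sham at 3 wpi, 1 in IL-4 MSC against MSC at 3 wpi, 2 in IL-4 MSC at 3 against 1 wpi and 1 in the interaction. Fits of the 2 groups alone called 5 in IL-4 MSC against Sham at 3 wpi, 2 in MSC at 3 against 1 wpi (Fosb at an adjusted p of 0.062) and 3 in IL-4 MSC at 3 against 1 wpi. Against Sham mice of the same week, 5 were called in IL-4 MSC at 1 wpi, and 3 in PBS and 1 in MSC at 3 wpi. Leaving out 1 mouse gave 7 to 9 for PBS, 8 to 9 for MSC and 8 to 8 for IL-4 MSC against Sham at 1 wpi, 0 to 1 for MSC and 5 to 9 for IL-4 MSC against Sham at 3 wpi, 0 to 2 for IL-4 MSC against MSC at 3 wpi, 1 to 4 for MSC and 1 to 2 for IL-4 MSC at 3 against 1 wpi, and 0 to 1 for the interaction. MSC against Sham at 3 wpi reached 1 without MSC mouse 1. The share of all genes called in each alternative fit is not given here, and the cause of these differences was not tested.

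Pairing by the mouse numbers of the labels was looked for by a rule. It asked that the deviations of all same-numbered mice in a pair of groups correlate at r over 0.1. This was met in 0 of 21 pairs of groups, with r from -0.46 to 0.40 over 99 pairs of mice. A weaker pairing would not meet the rule, so pairing is not excluded. The replicate block called 1 member in IL-4 MSC against MSC at 3 wpi and 1 in the interaction. Against Sham, it called 9, 9 and 8 for PBS, MSC and IL-4 MSC at 1 wpi, and 7 for IL-4 MSC at 3 wpi. At 3 against 1 wpi, it called 4 for MSC and 1 for IL-4 MSC. The share of all genes called in this fit is not given either, and nothing is read from its counts. For members, 55 fold changes were followed under the alternatives. They were those with an adjusted p under 0.05 and, in some comparisons, those with an unadjusted p under 0.05. Of their 892 values, 816 kept their direction and side of the threshold, 63 no longer passed, 13 newly passed and 0 turned direction. Since differences near 0 were left out by this choice, the lack of turned directions says little.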
